A study of Bos taurus with 21 samples.

Results

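Genes of the T cell receptor complex and its partners were followed in somatic cells of milk from 21 Holstein cows. They were found by symbol: CD3D, CD3E, CD3G, CD2, CD5, CD4, CD8A, LCK, ZAP70 and PTPRC. All 10 had a row among the 13570 gene rows of the deposited count tables, and all 10 had a count in every cow. They are 10 of the 12333 genes that had a count in at least 1 cow and were tested. The cows fell into a high yielding group (HY, 9 cows) and a low yielding group (LY, 12 cows). The labels give no treatment. The milk yield value given for each cow, for which no unit is stated, was 181 to 468 in HY and -404 to 86.9 in LY. Parity was 2 to 4. The lactation period, in days, ran from 41 to 268 in HY (median 168) and from 52 to 270 in LY (median 211.5). One milk sample from each cow was sequenced, all at the same farm, so all values describe the mixture of cells in that sample.

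T cells recognise antigen with a receptor whose own chains have almost no signalling part. The signal is carried by the invariant CD3 chains, CD3D, CD3E and CD3G, together with the zeta chain CD247. The coreceptors CD4 and CD8, of which CD8A is the alpha chain, bring the kinase LCK to the engaged receptor. LCK phosphorylates the CD3 chains, and the kinase ZAP70 binds them and passes the signal on. CD2 is an adhesion receptor that lowers the threshold of activation, and CD5 is a surface receptor that dampens it. PTPRC, known as CD45, is a phosphatase on leukocytes that keeps LCK ready to act. PTPRC was therefore used as a gene of leukocytes in general, against which the other 9 genes, called T cell genes below, were set. Its level did not follow the summed macrophage or neutrophil markers given below, so it is not read as a measure of all leukocytes. Milk of a healthy udder holds T cells beside macrophages, neutrophils and shed epithelial cells.

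The level of a gene is given as CPM, that is its share of a cow's counts after TMM scaling, and every regression used log2(CPM + 0.25). Transcript lengths were not used, so levels are compared between cows and not between genes. Counts on genes were 7878557 to 28541904 per cow. The 5 milk protein genes CSN1S1, CSN1S2, CSN2, CSN3 and LALBA took 0.0904% to 48.5% of the counts. In 2 cows, HY 3262 and HY 3280, this share was 48.5% and 38.6%, and their TMM factors of 0.46 and 0.50 stood below those of all other cows. These 2 cows also had the lowest PTPRC levels of all. The main fits on PTPRC, the lactation period, the yield group and the CD4 to CD8A ratio are therefore given with and without them below. Other results, such as the list counts, the milk value fits and most correlations within HY, include them unless stated. In 5 cows, 1 HY and 4 LY, over 85% of the reads had mapped.

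The 3 CD3 genes ranged widely between cows and their groups overlapped. CD3D was 5.11 to 119 CPM in HY, median 31.0, and 5.95 to 197 in LY, median 42.2. CD3E was 21.0 to 186 CPM in HY, median 73.3, and 18.4 to 349 in LY, median 86.5. CD3G was 3.54 to 101 CPM in HY, median 20.4, and 7.10 to 181 in LY, median 46.5. The lowest HY value was in cow 3280 for all 3 genes, and the highest value of all was in LY 3264. From the lowest to the highest cow CD3D spanned 38.6-fold, CD3E 19.0-fold and CD3G 51.3-fold. In a bulk sample, fewer T cells and less RNA per T cell cannot be told apart.

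The coreceptors spanned a similar range. CD4 was 6.09 to 198 CPM in HY, median 57.9, and 8.02 to 313 in LY, median 52.8. The highest CD4 level was in LY 7643 and the highest of HY was in 3064. CD8A was 0.589 to 32.4 CPM in HY, median 7.95, and 2.27 to 60.4 in LY, median 14.3. The lowest CD8A value stood for 3 counts in HY 3280, and the span over the 21 cows was 102-fold. CD8A was thus the member with the widest range and the only one with under 10 counts in any cow.

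CD2 was 2.16 to 78.3 CPM in HY, median 20.0, and 4.58 to 167 in LY, median 31.0. CD5 was 8.64 to 78.3 CPM in HY, median 29.2, and 8.15 to 200 in LY, median 27.2. The LY maximum of CD5 was again cow 7643, and the next highest cow was LY 3264 at 86.4 CPM, whereas the CD2 maximum was LY 3264. Of the kinases, LCK was 3.34 to 75.3 CPM in HY, median 25.0, and 7.67 to 166 in LY, median 28.6. ZAP70 was 13.9 to 91.9 CPM in HY, median 43.4, and 7.77 to 167 in LY, median 53.3. ZAP70 alone among the 9 T cell genes was not near its minimum in HY 3280, where it was 43.4 CPM.

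PTPRC had the narrowest span of the 10 genes in CPM over all cows. It was 82.9 to 1258 CPM in HY, median 447, and 163 to 1183 in LY, median 557, a span of 15.2-fold. The coefficient of variation over the 21 cows was 59.7% for PTPRC, 66.6% for ZAP70 and 101% for CD5. On the log2 scale ZAP70 and CD3E varied less than PTPRC, with SDs of 1.02, 1.08 and 1.09, and within HY the coefficient of variation was 76.9% for PTPRC and 57.0% for ZAP70. The lowest PTPRC cows were HY 3262, HY 3280 and LY 3161, and the highest was HY 3014.

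**Figure D1:**
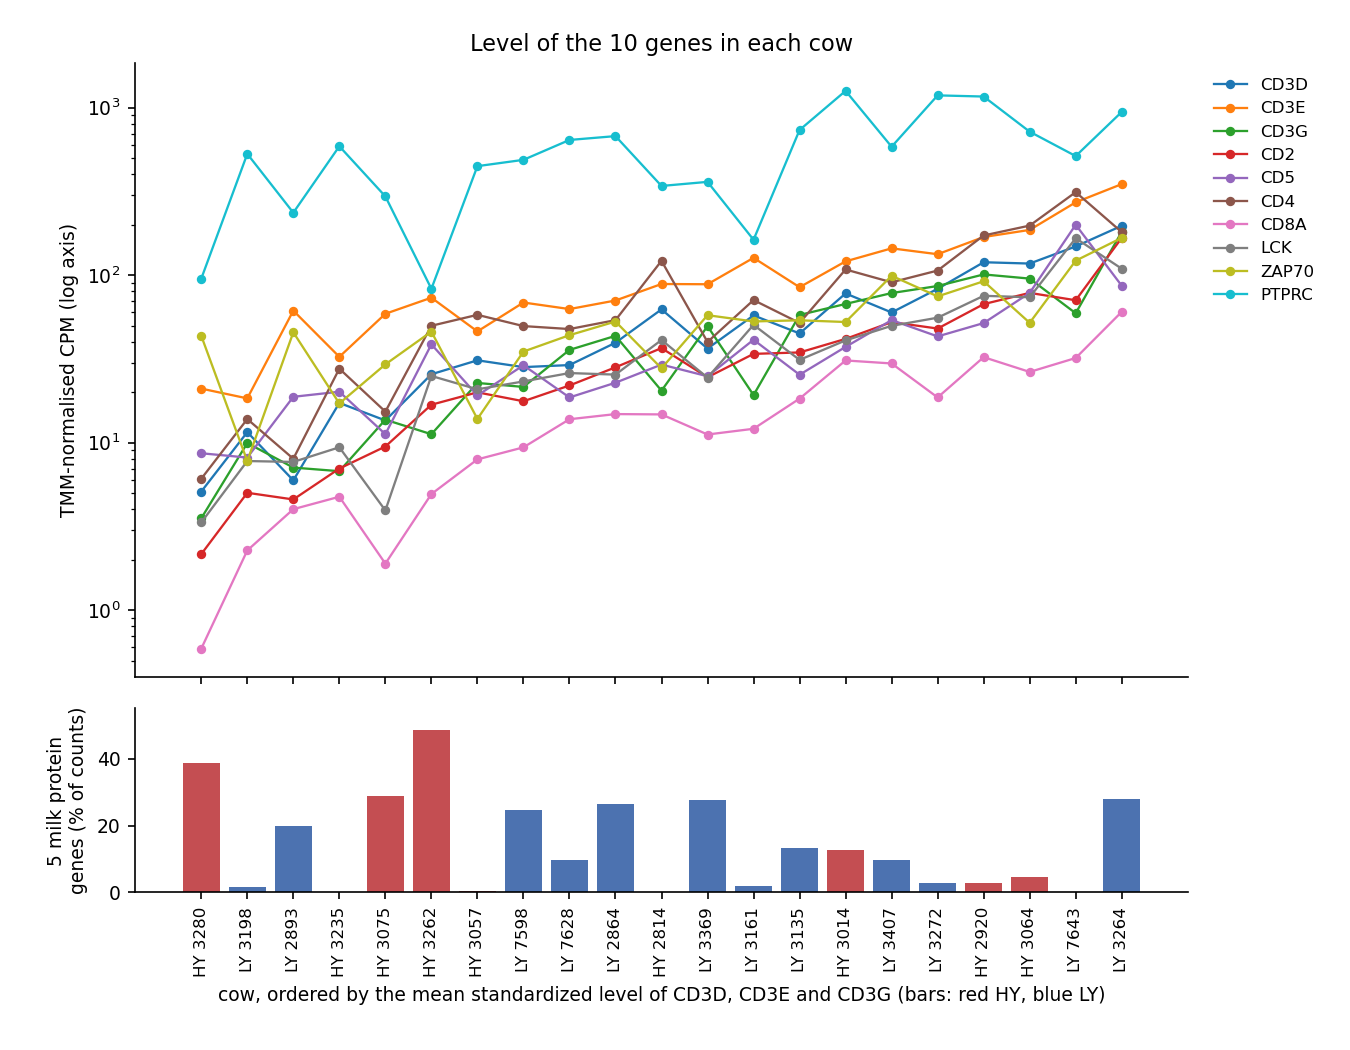
TMM-normalised CPM of the 10 genes (log axis, upper panel) in each of 21 cows, ordered from left to right by the mean standardized level of CD3D, CD3E and CD3G; the lower panel shows the percent of counts on 5 milk protein genes, with HY in red and LY in blue. The T cell genes climb together from HY 3280 to LY 3264, and ZAP70 lies high in HY 3280 and LY 2893. PTPRC follows the order more loosely (rho = 0.623), and HY and LY cows are mixed along the axis.

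The levels of the T cell genes moved with sequencing depth. The correlation of log2 level with log2 total counts was 0.51 for CD3G to 0.68 for CD5 over the 9 T cell genes, and 0.09 for PTPRC. Within the 16 cows under the mapping limit it was 0.338 for CD3G to 0.70 for CD5. The median of CD3D was 82.8 CPM in the 5 cows over that limit and 33.7 CPM in the other 16. Total counts themselves had a correlation of -0.0098 with the lactation period and -0.0037 with the milk yield value. The part of depth in the differences between cows was not tested.

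The 9 T cell genes rose and fell together over the 21 cows. Their 36 pairs had a median Pearson r of 0.888, from 0.56 for CD4 with ZAP70 to 0.98 for CD3D with CD2. Over all pairs of the 9628 genes with a mean count of at least 10, the median was 0.00575, and 0.232% of pairs had an r of 0.888 or more. CD3D and CD4 had an r of 0.977, CD4 and LCK 0.961, CD3D and LCK 0.956, and CD2 and CD8A 0.953. These are descriptions, since the points share the depth and the scaling of each library.

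ZAP70 had the lower correlations of the 9. Its 8 pairs with the other T cell genes had a median r of 0.669, with the closest being CD3E at 0.837. The 28 pairs without ZAP70 had a median of 0.914 and a lowest value of 0.716, which was CD3G with CD5. Without HY 3262 and HY 3280 the pairs with ZAP70 had a median of 0.778, up to 0.919 with CD3E, and the 28 others one of 0.896. Relative to CD3D, with 0.5 counts added to both, the ZAP70 count was 0.443 in HY 3064 and 8.36 in HY 3280, with a median of 0.993. The log2 of this ratio had a correlation of 0.635 with the log2 level of the milk protein genes and of -0.70 with CD3D itself. CD3D is the divisor of the ratio, so the second correlation is in part built in. Without HY 3262 and HY 3280 the highest ratio was 7.59, in LY 2893, and these correlations were 0.578 and -0.59. ZAP70 is also used by natural killer cells, whose part in this ratio was not tested.

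The CD3 chains were not in a fixed ratio of counts either. CD3E over CD3D was 1.41 in HY 2920 and 10.2 in LY 2893, with a median of 1.88. CD3G over CD3D was 0.327 in HY 2814 and 1.36 in LY 3369, with a median of 0.861. CD3G over CD3E was 0.116 in LY 2893 and 0.683 in LY 3135. By contrast, CD2 over CD3D stayed between 0.408 and 0.876, and the SD of its log2 was 0.312, against 0.679 for CD3E over CD3D and 0.667 for CD3G over CD3D. LY 2893 held only 52 counts of CD3D, so its ratios carry a larger counting error than those of most cows.

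**Figure D2:**
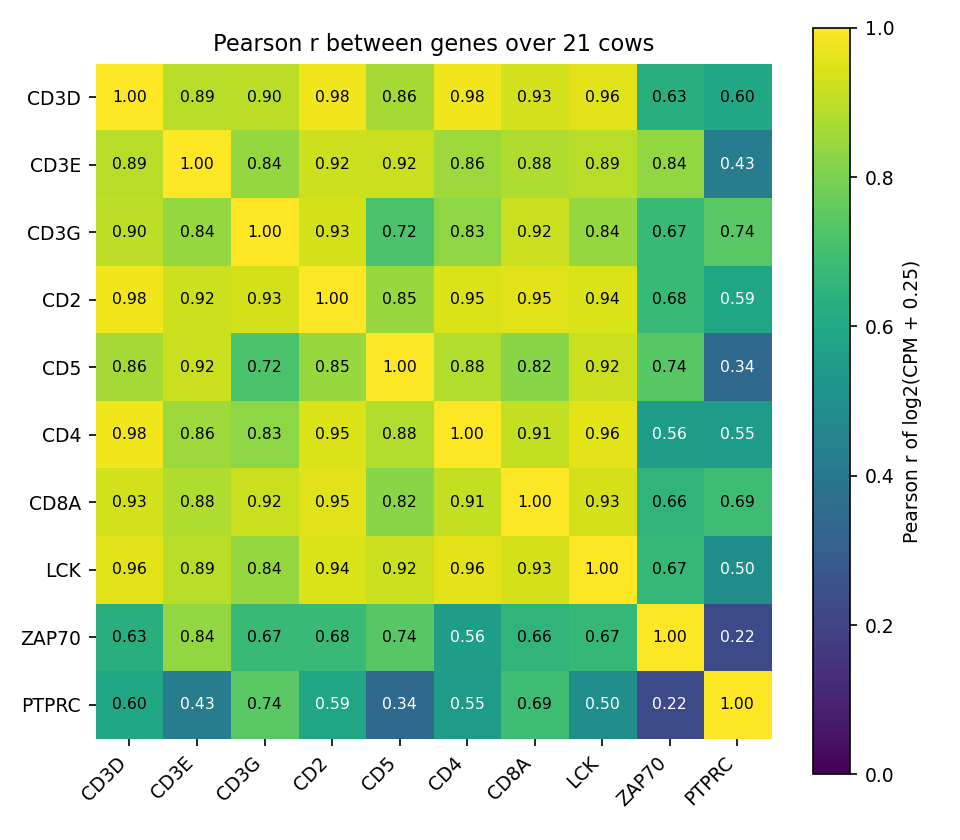
Pearson r of log2(CPM + 0.25) between each pair of the 10 genes over 21 cows, from 0 (dark) to 1 (yellow). The block of CD3D, CD3E, CD3G, CD2, CD5, CD4, CD8A and LCK lies between 0.72 and 0.98, whereas the rows of ZAP70 and PTPRC are darker, with 0.22 between these 2 genes.

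The genes whose level followed that of CD3 most closely were then ranked. The measure was Spearman's rho over the 21 cows with the mean standardized log2 level of CD3D, CD3E and CD3G, for the 9628 genes with a mean count of at least 10. Among genes outside the list, the highest rho was 0.958 for OASL, an interferon-induced gene. It was followed by the T cell adaptor SLA2 at 0.952, the chemokine receptor CXCR6 at 0.949, the ubiquitin-like gene UBD at 0.949 and the costimulatory receptor ICOS at 0.948. CD247, the zeta chain of the receptor, had 0.945, the adaptor GRAP2 0.939, the transcription factor LEF1 0.932 and the T cell phosphatase-like gene UBASH3A 0.927. The sixth was a row whose symbol had turned into the date 01-Sep, with 0.945, and its gene is not named here. These genes were picked for their rho. Over the lists of T cell genes the median rho was 0.799 for receptor signalling, 0.497 for surface and costimulation and 0.706 for lineage transcription factors, and 13 of 27, 5 of 16 and 5 of 13 genes had a rho over 0.8. The phosphatase PTPN6, which other leukocytes use too, had -0.145 and the adaptor BCL10 0.258. CD2 ranked 1 of the 9628 genes, CD8A 5, LCK 7, CD4 29, CD5 35, ZAP70 79 and PTPRC 373, and the median rho of all genes was 0.0416.

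The relation of each T cell gene with PTPRC was then tested, to ask which of them moved with the leukocyte gene. By ordinary regression on the log2 level of PTPRC over 12332 genes, 42.6% of all genes passed an unadjusted P-value of 0.05, 23.5% with a positive slope, and 18% had a positive slope with a Benjamini-Hochberg adjusted P-value under 0.05. Of the 9 T cell genes, 6 passed the unadjusted threshold and 5 the adjusted threshold, all with positive slopes. CD3G had r = 0.743 (Spearman rho = 0.757, permutation P-value = 8e-05 for r and 9e-05 for rho) and an adjusted P-value of 0.000993. A rise of 1 in log2 PTPRC went with a rise of 1.02 (SE 0.212) in log2 CD3G. CD8A had r = 0.689 (rho = 0.723) and an adjusted P-value of 0.00347.

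CD3D, CD2 and CD4 passed with r of 0.601, 0.586 and 0.55 and adjusted P-values of 0.0163, 0.0203 and 0.0333. LCK had r = 0.499 with an adjusted P-value of 0.0611. CD3E had r = 0.425, CD5 had 0.344 and ZAP70 had 0.223, with adjusted P-values of 0.126, 0.239 and 0.478. The 3 CD3 chains thus did not share one relation: the log2 ratio of CD3G to CD3E had a correlation of 0.791 with PTPRC. Within HY the correlations with PTPRC ran from 0.153 for ZAP70 to 0.788 for CD8A, and within LY from 0.159 for CD5 to 0.684 for CD3G, and none was negative.

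The 2 cows with the lowest PTPRC bore on the calls more than on the slopes. Without HY 3262 and HY 3280 the number of T cell genes past the adjusted threshold fell from 5 to 1, and without HY 3280 alone it was 2. It was also 2 in the 16 cows under the mapping limit. Without these 2 cows the slopes on PTPRC were close to those of all cows or higher, such as 1.14 for CD3G (1.02 with them), 0.87 for CD3D (0.785), 0.844 for CD2 (0.814), 0.855 for CD4 (0.757) and 0.943 for CD8A (0.972), and the range of PTPRC was narrower. The r of CD3G was then 0.668 and that of CD3E 0.302. Both sides of the regression also share the TMM factor of each library, whose log2 had a correlation of 0.739 with PTPRC and 0.607 with CD3G, and the part of this in the relation was not tested.

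**Figure D3:**
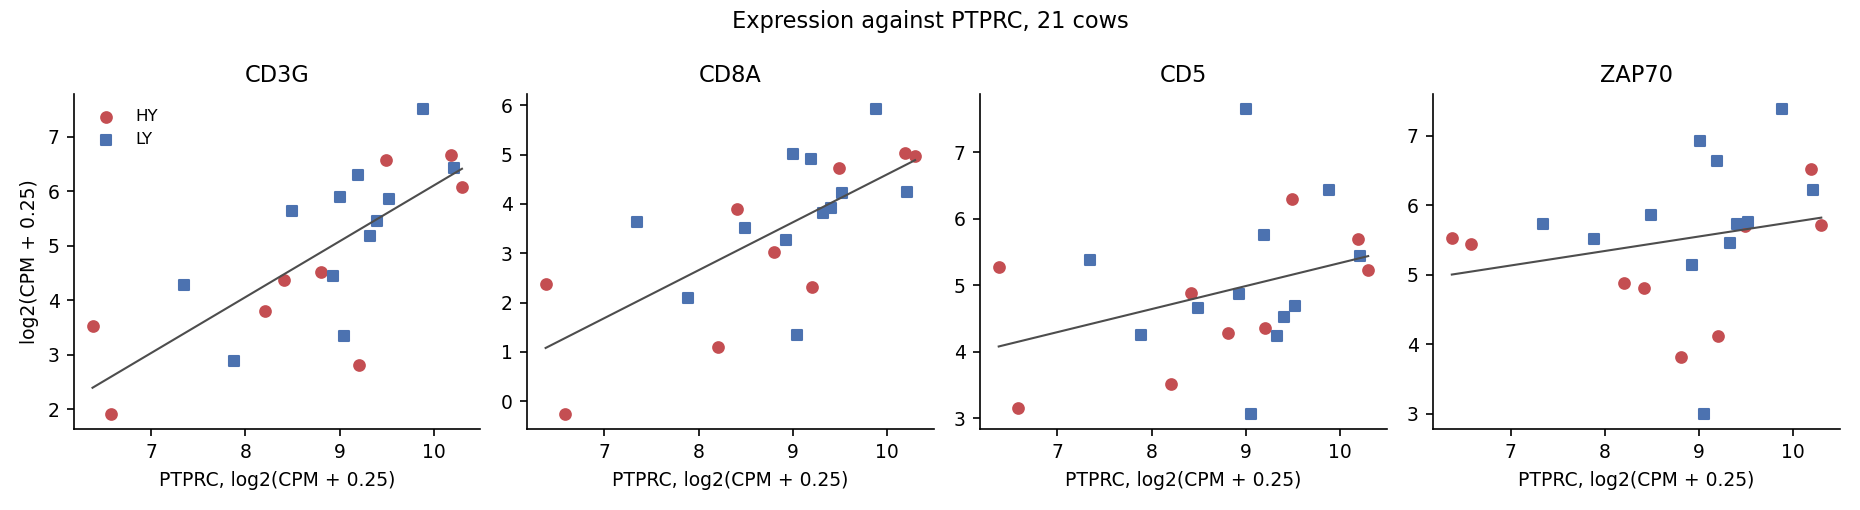
log2(CPM + 0.25) of CD3G, CD8A, CD5 and ZAP70 against that of PTPRC in 21 cows (red circles HY, blue squares LY), with the regression line over all cows. CD3G and CD8A rise with PTPRC (r of 0.743 and 0.689), CD5 and ZAP70 less so (0.344 and 0.223), and 2 HY cows lie alone at the lowest PTPRC levels.

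Part of the list rose with the lactation period, at the unadjusted threshold only. By ordinary regression on the lactation period, 20.3% of the 12333 genes had an unadjusted P-value under 0.05, and 10.5% had one with a positive slope. All 10 members had a positive slope, as did 56.3% of all genes, and 4 of 10 passed this threshold: CD3D, CD3G, CD8A and PTPRC. The median r of the members was 0.417 and the median of all genes was 0.0668. After Benjamini-Hochberg adjustment 0 of 12333 genes and 0 members passed 0.05. The lowest adjusted P-value of any gene was 0.125.

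PTPRC had the strongest relation of the 10 genes. Its log2 level rose by 0.807 (SE 0.246) per 100 days, with r = 0.602, rho = 0.599 and an unadjusted P-value of 0.00392 (adjusted 0.126). CD3G rose by 0.853 (SE 0.376) per 100 days with r = 0.461, CD8A by 0.832 with r = 0.44 and CD3D by 0.768 (SE 0.361) with r = 0.439. Their unadjusted P-values were 0.0353, 0.0459 and 0.0466, and the adjusted ones were 0.212, 0.236 and 0.237. The rank correlation of these 3 T cell genes was lower, with rho of 0.391, 0.357 and 0.317 and permutation P-values of 0.0813, 0.113 and 0.163.

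The other members did not pass the threshold. CD4 had r = 0.432 (P-value = 0.0506), CD2 0.403 (P-value = 0.0702), LCK 0.391 (P-value = 0.080), CD5 0.286, CD3E 0.269 and ZAP70 0.145. Within HY, r ran from -0.0797 for ZAP70 to 0.684 for PTPRC, and within LY from 0.228 for ZAP70 to 0.525 for PTPRC. Without the 2 cows farthest from the median lactation period, r was higher for every member, from 0.207 for ZAP70 to 0.688 for PTPRC. The test of a different slope in HY and LY was passed by 0 of 10 members, against 1.27% of all genes at an unadjusted P-value under 0.05 and 0 genes after adjustment.

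The count of 4 was not stable. Without the 2 cows of low TMM factor it was 1, and this was PTPRC, whose slope was then 0.543 per 100 days. The slopes of CD3D, CD3G and CD8A were then 0.646, 0.655 and 0.616. With PTPRC as a covariate it was 0 of the 9 T cell genes. Over all genes the number fell as well, from 2509 to 191, so the fall was not particular to the T cell genes. With this covariate CD3G rose by 0.0413 and CD8A by 0.0748 per 100 days. The 5 milk protein genes had a correlation of -0.146 with the lactation period. By the same regression, 2509 of all genes had an unadjusted P-value under 0.05 with all cows, and 1322 without the 2 cows of low TMM factor.

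**Figure D4:**
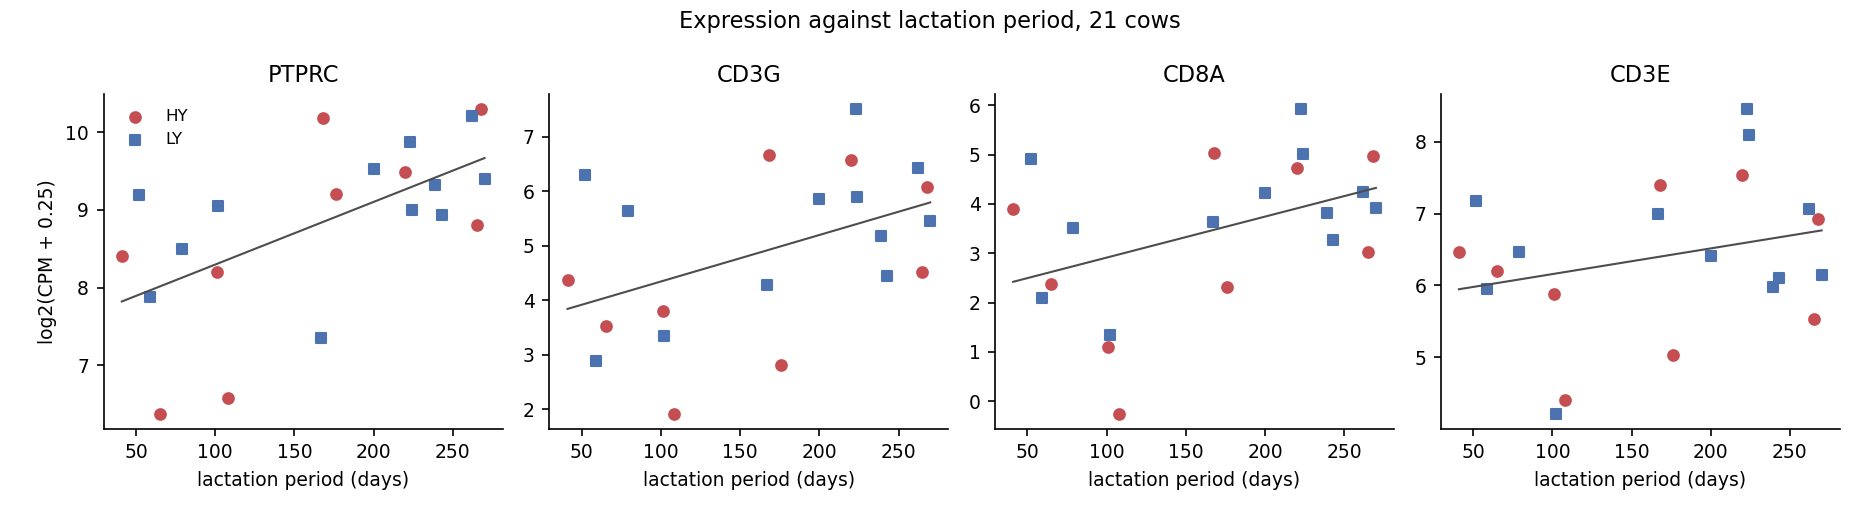
log2(CPM + 0.25) of PTPRC, CD3G, CD8A and CD3E against the lactation period in days in 21 cows (red circles HY, blue squares LY), with the regression line over all cows. PTPRC shows the closest relation (r = 0.602), CD3G and CD8A scatter more (0.461 and 0.44), and CD3E more still (0.269), with low cows near 100 days in each panel.

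Genes that work with the T cell receptor were counted by lists. Of the T cell receptor signalling list, 27 of 30 genes had a count, and 16 of these 27 rose with the lactation period at an unadjusted P-value under 0.05 and 0 fell, with a median r of 0.465, against 10.5% of all genes with a positive slope. The lowest P-values were those of THEMIS, a protein needed for T cell maturation (r = 0.607, P-value = 0.0035), TRAT1, an adaptor of the receptor (r = 0.583, P-value = 0.00553), and SLA, an adaptor that lowers receptor levels (r = 0.563, P-value = 0.00783). SLA is a gene that other leukocytes use too, and its rho with the CD3 level was 0.321, against 0.902 for THEMIS and 0.859 for TRAT1. THEMIS and TRAT1 had no count in 2 cows each. Of the 27 genes, 13 had a rho over 0.8 with the CD3 level, and genes that rise and fall together are not independent results. The counts of this list and of those below include the 2 cows of low TMM factor. Without those 2 cows the number related to the lactation period fell from 2509 to 1322 over all genes, and from 4 to 1 over the members. Against PTPRC, 18 of the 27 passed the adjusted threshold with a positive slope, against 18% of all genes.

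Of the list of T cell surface and costimulation genes, 7 of 16 rose with the lactation period and 0 fell, against the same 10.5% of all genes, led by IL2RA, the alpha chain of the interleukin-2 receptor (r = 0.579), the activation antigen CD69 (r = 0.488) and the costimulatory receptor CD28 (r = 0.474). The rho of CD69 with the CD3 level was 0.182 and that of CD28 was 0.92. Of the lineage transcription factors, 5 of 13 rose and 0 fell, also against 10.5%, led by EOMES (r = 0.582), ETS1 (r = 0.51) and IKZF1 (r = 0.505). CD28 had no count in 2 cows and EOMES in 3. Of these 3 lists 0 genes passed the adjusted threshold for the lactation period. For PTPRC, 7 of 16 surface genes and 8 of 13 transcription factors passed it with positive slopes, against 18% of all genes. For the milk yield value, 0 genes of the 3 lists passed an unadjusted P-value of 0.05.

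Markers of the other cells in milk were counted in the same way for the lactation period, again against 10.5% of all genes with a positive slope. Of 10 natural killer and cytotoxic cell markers, 3 rose, KLRD1, KLRB1 and KLRK1, and 0 fell. These 3 had low levels, with medians of 1.19, 1.14 and 5.69 CPM and no count in 2, 2 and 1 cows. Of 5 B cell markers 1 rose, CR2, of 7 neutrophil markers 1 rose, MMP9, and of 8 macrophage and 10 mammary epithelial markers 0 rose and 0 fell. Nothing is read from the single B cell and neutrophil genes, since 1 of 5 and 1 of 7 lie near the share of all genes. The summed level of the natural killer list was 95.1 to 504 CPM in HY and 127 to 600 in LY, and its correlation with the CD3 level was 0.519. That of the macrophage list was 1390 to 6663 CPM in HY and 1725 to 5748 in LY, and that of the neutrophil list was 2259 to 12205 in HY and 3754 to 12213 in LY. These 2 sums had correlations of 0.0808 and -0.0737 with the CD3 level. The B cell list summed to 6.09 to 112 CPM in HY and 20.6 to 104 in LY, with a correlation of 0.604 with the CD3 level. With PTPRC, the correlation was 0.177 for the macrophage sum, -0.0562 for the neutrophil, 0.169 for the natural killer and 0.625 for the B cell sum. By single genes, 5 of 10 natural killer markers passed the adjusted threshold for PTPRC with a positive slope, against 18% of all genes. It was 1 of 5 B cell, 1 of 7 neutrophil and 0 of 8 macrophage markers. For the sums of the 3 T cell lists it was 0.712 (receptor signalling), 0.483 (surface and costimulation) and 0.795 (transcription factors).

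No difference in level between HY and LY passed the test for any member. By edgeR's quasi-likelihood test, 0 of 10 members had an unadjusted P-value under 0.05, against 4.7% of all genes, and every member had an adjusted P-value of 0.999. By DESeq2, 0 of 10 members passed either. All 10 fitted log2 fold changes were negative, from -0.02 for CD4 and -0.08 for PTPRC to -0.56 for LCK and -0.70 for ZAP70 (unadjusted P-value = 0.0771). Of all genes, 52.7% had a positive one, and members that rise and fall together do not give independent signs. With the exact permutation test on mean log2 levels, the difference of ZAP70 was -0.61 (SE 0.424, P-value = 0.186), that of CD8A -0.80 (SE 0.708, P-value = 0.25) and that of CD3G -0.79 (SE 0.677, P-value = 0.238). The values of HY and LY overlapped for every member. Without the 2 cows of low TMM factor, the fitted changes of CD3D, CD4 and PTPRC turned positive, at 0.04, 0.24 and 0.25.

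No member passed the test for a relation with a milk value by ordinary regression. For milk yield 0 of 10 members passed an unadjusted P-value of 0.05, against 2.49% of all genes. It was 0 of 10 for milk fat and for milk protein, against 2.3% of all genes for each, and 0 of 10 for milk solid, against 1.65%. After adjustment 0 of 12333 genes passed for any of the 4 values. For milk yield, r ran from -0.288 for ZAP70 to 0.149 for CD4, and for milk solid from -0.231 for ZAP70 to 0.0872 for CD4. For milk protein it ran from -0.303 for ZAP70 to 0.0937 for CD4, and for milk fat from -0.267 for CD3G to -0.00858 for CD4.

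CD4 thus had the highest r of the 10 genes with each of the 4 milk values. CD8A had an r of -0.124 with milk yield, -0.236 with milk fat, -0.167 with milk protein and -0.124 with milk solid. The rank correlation of ZAP70 with milk protein was -0.449, with a permutation P-value of 0.042 that was not adjusted over the 40 relations of members with milk values. Within the groups, r of ZAP70 with milk protein was -0.068 in HY and -0.118 in LY. With milk yield, 9 of 10 members had a positive r within HY, up to 0.476 for CD3G, and 9 of 10 within LY, up to 0.36 for CD4. These signs are not independent, since the members rise and fall together, and the share of all genes within each group was not taken.

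The ratio of CD4 to CD8A compares the helper and the cytotoxic coreceptor within a cow and needs no scaling between libraries. It is a ratio of counts, with 0.5 added to each, and not of cells. It was higher in HY than in LY. In HY the ratio was 3.49 in cow 3014 to 10.03 in cow 3262, with a median of 7.47. In LY it was 1.99 in cow 2893 to 9.77 in cow 7643, with a median of 3.59. The ranges overlapped, but 8 of 9 HY cows lay above the median of LY.

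The geometric means were 6.86 in HY and 4.11 in LY. On the log2 scale, HY had a mean ratio of 2.78 ± 0.465 (SD, n = 9). LY had a mean of 2.04 ± 0.632 (SD, n = 12). The difference was 0.74 on the log2 scale (SE 0.239), with a two-sided exact permutation P-value of 0.00945 over 293930 ways to choose the HY cows. Where counts were low the ratio of a single cow was loose. HY 3280 had 31 counts of CD4 and 3 of CD8A, and the exact (Clopper-Pearson) 95% interval of its uncorrected ratio was 3.22 to 52.8, whereas that of LY 7643, with 6968 and 713 counts, was 9.05 to 10.6. Such intervals cover counting error only.

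The difference kept its side of the threshold without HY 3262 and HY 3280 (0.60, exact permutation P-value = 0.0416), in the 16 cows under the mapping limit (0.91, exact permutation P-value = 0.00544) and without any single cow (0.64 to 0.86). The log2 ratio had a correlation of -0.01 with CD3D, -0.401 with PTPRC, -0.323 with the milk protein genes and 0.0878 with log2 total counts.

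A set of 6 further ratios was set up after the values were seen, to show which count moved, and their P-values were adjusted over the 6. CD8A over CD3D was 0.226 in HY and 0.328 in LY as geometric means, a log2 difference of -0.54 (SE 0.23, exact permutation P-value = 0.0331, adjusted 0.199). CD4 over CD3D was 1.55 in HY and 1.35 in LY, a difference of 0.20 (SE 0.136, exact permutation P-value = 0.169, adjusted 0.253). CD3G over CD3D differed by -0.51 (SE 0.272, exact permutation P-value = 0.0839), and 0 of 9 HY cows lay above the LY median of 1.07. The log2 of that ratio had a correlation of -0.685 with the log2 CD4 to CD8A ratio.

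CD8B, the beta chain of the CD8 coreceptor of most cytotoxic T cells, gave a weaker result than CD8A. CD4 over CD8B was 6.52 in HY and 4.44 in LY, a log2 difference of 0.55 (SE 0.342, exact permutation P-value = 0.124, adjusted 0.248). Between CD8B and CD8A the log2 ratio differed by 0.18 (SE 0.323, exact permutation P-value = 0.554, adjusted 0.554). That of CD8B to CD3D differed by -0.36 (SE 0.335, exact permutation P-value = 0.316, adjusted 0.379). The log2 ratios of CD4 to CD8A and of CD4 to CD8B had a correlation of 0.586 over the cows. CD8A is also made by some natural killer cells in several species. In the natural killer and cytotoxic list, 2 of 10 genes were lower in HY by edgeR at an unadjusted P-value under 0.05, against 4.7% of all genes in either direction, KLRD1 (log2 fold change -1.55, P-value = 0.0497) and KLRB1 (-1.27, P-value = 0.0453). Both had an adjusted P-value of 0.999, low levels (medians of 1.19 CPM for KLRD1 and 1.14 CPM for KLRB1) and no count in 2 cows each. Of the other lists, 1 of 5 B cell markers, BLK, was lower in HY by edgeR (-1.12, P-value = 0.0363, adjusted 0.999). So was 1 of 27 receptor signalling genes, and no gene of the remaining lists was. The part of natural killer or other cells in the ratio was not tested.

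The CD4 to CD8A ratio also rose with the milk values, of which milk yield and milk protein each separate HY from LY without overlap. With milk yield r was 0.638 (permutation P-value = 0.002) and rho 0.53 (permutation P-value = 0.0151). Adjusted over the 5 relations these were 0.00863 and 0.0252. With milk protein r was 0.615 (permutation P-value = 0.00345) and rho 0.573, and with milk fat r was 0.547 (permutation P-value = 0.011) and rho 0.584. With milk solid r was 0.501 (permutation P-value = 0.0213), but rho was 0.361 with a permutation P-value of 0.109. Without the 2 cows farthest from the median yield, r with milk yield was 0.613.

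Within the groups the relation with milk yield was not shown. Within LY r was 0.521 (permutation P-value = 0.0831, rho = 0.371), and within HY it was -0.0533 (permutation P-value = 0.897, rho = -0.383). Within LY, r with milk protein was 0.539 and with milk fat 0.197, and within HY they were -0.113 and 0.332. The pooled relation was thus not seen within HY, and it did not pass the test within LY.

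With the lactation period the ratio had r = -0.071 over all cows (permutation P-value = 0.759, rho = -0.148). Within HY r was -0.679 (permutation P-value = 0.0399, rho = -0.767), and within LY it was 0.368 (permutation P-value = 0.241, rho = 0.336). The log2 ratio fell by 0.378 per 100 days in HY and rose by 0.284 in LY. The difference of these slopes was -0.66, with a permutation P-value of 0.0287, in a model chosen after the values were seen.

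**Figure D5:**
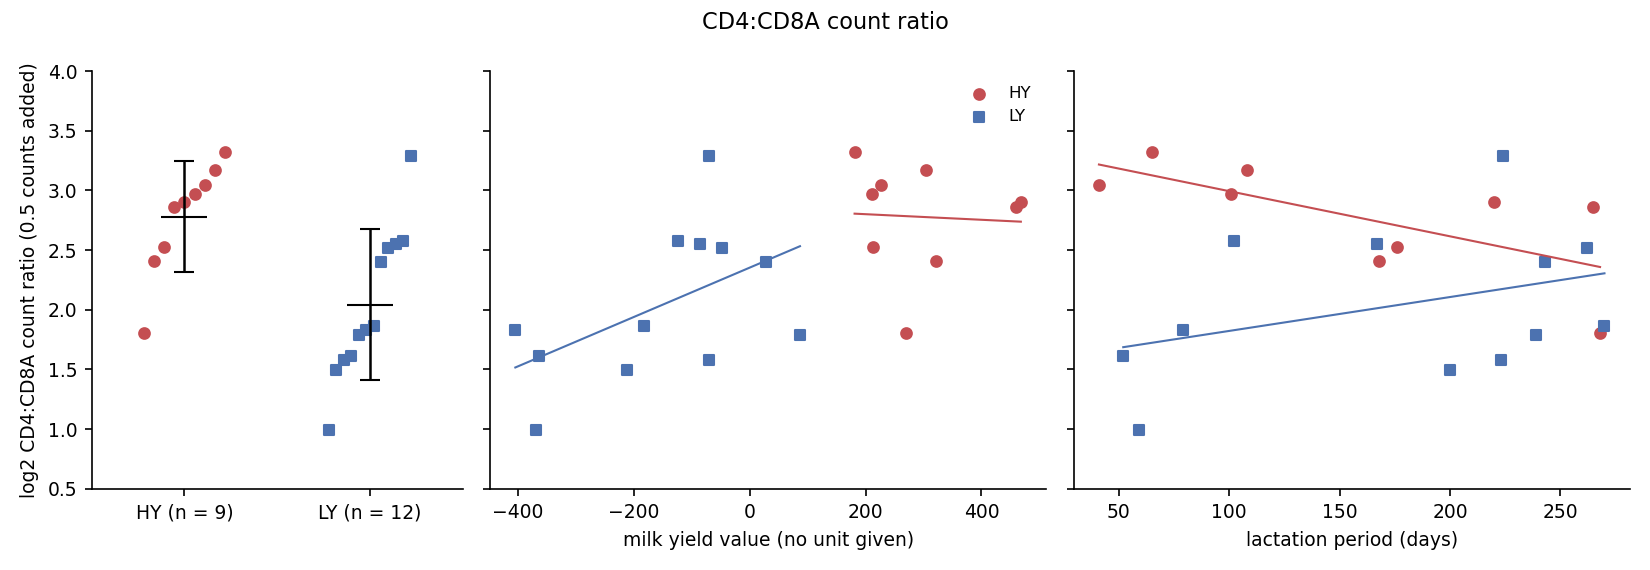
log2 ratio of CD4 to CD8A counts (0.5 counts added) by group with mean and SD (left), against the milk yield value (middle) and against the lactation period in days (right), with a line for each group (red circles HY, blue squares LY). HY cows lie mostly above LY cows, with means of 2.78 and 2.04, the line of HY is nearly flat over milk yield, and the 2 groups are farthest apart early in lactation.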

How the data were processed

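The authors trimmed the reads with Trimmomatic, mapped them to bosTau7 with Bowtie2 within TopHat2, and deposited raw HTSeq counts per gene symbol. Tool versions were not given in the sources used here. HTSeq's summary rows and a row with no gene name (0.036% to 0.151% of counts) were left out. In 23 rows the symbol was a date. The smallest chi-square per degree of freedom between 2 cows was 37.9, so no library was a copy. Groups, lactation period and milk values came from the labels.

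Counts were scaled with TMM in edgeR 4.0.16 (R 4.3.3). Members and lists were chosen with earlier results of these data known. Genes named beside the members were the 10 closest to the CD3 level and, from each list, the 3 of lowest P-value for the lactation period and any past the adjusted threshold. Ordinary regression was used for continuous values, with expression as the response (the study had the trait as the response and the lactation period as a covariate; without covariates the test of the slope is the same either way), edgeR's quasi-likelihood test on raw counts for HY against LY, with DESeq2 1.42.0 as an alternative, and Benjamini-Hochberg adjustment over all 12333 genes. P-values for r and rho came from 100000 permutations, and those for HY against LY of single values from exact permutation, all two-sided. The scripts were tested on simulated counts. Mapping rates, used only to separate the 5 cows over 85%, came from the study's supplement.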

Additional observations from a re-analysis of the deposited data

Results flagged for a closer look

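The slope of the log2 CD4 to CD8A ratio on the lactation period differed between HY and LY by -0.66 per 100 days (permutation P-value = 0.0287), in a model set up after the values were seen. It fell by 0.378 in HY and rose by 0.284 in LY. The P-value of the difference passed the threshold of 0.05 without most single cows, but it was 0.113 without HY 3014, 0.0885 without LY 2893 and 0.0561 without HY 3262. In the 16 cows under the mapping limit the difference was -0.51 with a P-value of 0.103, and without HY 3262 and HY 3280 it was -0.58 with a P-value of 0.0867. The direction was the same in each of these fits. Among the single genes, the test of a different slope was passed by 0 of 10 members, CD4 having a slope difference of -0.26 and CD8A of 0.38.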

How the results depend on the processing

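Alternatives were another scaling (DESeq2 size factors), a mean count of at least 10, the 16 cows under the mapping limit, a pseudocount of 1, an edgeR fit or a Huber robust regression, covariates, and leaving out each cow. After the values were seen, the fits without HY 3262 and HY 3280 and with the milk protein genes as a covariate were added. The number of members related to the lactation period was 4. It was 1 by edgeR, 1 by Huber regression, 0 with PTPRC as a covariate, 2 with the yield group, 2 with the milk protein genes, and 1 without HY 3262 and HY 3280. Leaving out 1 cow gave 1 (LY 2893, LY 3198, LY 3264, LY 3272, HY 3014, HY 3064, HY 3075 or HY 3280) to 7 (HY 2814 or LY 3407). For milk yield, milk fat, and HY against LY the number of members was 0, and 0 to 1 without single cows (LY 3198 for milk yield, HY 2920 for milk fat, either of them for HY against LY). The 5 members past the adjusted threshold for PTPRC became 1 to 6, with 1 in the fit without HY 3262 and HY 3280, and 2 without HY 3280, in the 16 cows, or with yield group and lactation period as covariates.

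Some directions turned. For CD4 the slope on milk fat, -0.0128, became 0.197 by edgeR, 0.0456 by Huber regression, 0.0866 with parity and lactation period, 0.126 with PTPRC and 0.049 with the yield group, and -0.27 to 0.129 without single cows. With parity and lactation period its slope was -0.0789 on milk protein and -0.215 on milk solid. Without single cows its slope was -0.00154 to 0.408 on milk yield, -0.0581 to 0.327 on milk protein and -0.114 to 0.311 on milk solid. Its log2 fold change of HY over LY became 0.316 in the 16 cows, 0.233 with parity and lactation period, 0.0458 with PTPRC, and -0.29 to 0.395 without single cows. Without HY 3262 and HY 3280 it was 0.235, that of CD3D 0.0381 and that of PTPRC 0.254. Without single cows it was -0.495 to 0.0779 for CD3D (-0.24 with all cows), -0.75 to 0.00188 for CD2 (-0.45 with all cows, positive only without LY 3264) and -0.334 to 0.0591 for PTPRC. The causes were not tested. The correlation of the CD4 to CD8A ratio with the lactation period, -0.071, became 0.028 with 5 counts added, 0.0958 without HY 3262 and HY 3280, and -0.256 to 0.0286 without single cows. For the difference of the ratio between HY and LY, only some alternatives were run. These were 5 counts added, the 16 cows, the fit without HY 3262 and HY 3280, and leaving out each cow. The difference kept its direction and side of the threshold in them, from 0.593 with 5 counts added to 0.914 in the 16 cows. It was not fitted with parity or the lactation period as covariates, and with CD8B in place of CD8A the exact permutation P-value was 0.124.

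Over all genes, the number with an unadjusted P-value under 0.05 for the lactation period was 191 with PTPRC as a covariate to 2756 by edgeR, and 1667 to 3018 without single cows, against 2509, and for HY against LY it was 189 with a mean count of at least 10 to 737 with the milk protein genes as a covariate, 367 by DESeq2, and 508 to 677 without single cows, against 580. With 21 cows and members that varied by 15.2-fold or more, small slopes could not be detected. No paired analysis was possible because each cow was in 1 group and the cow numbers were not shared.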
